A study of Mus musculus with 10 samples.

Results

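The genes of glucose uptake, glycolysis, and pyruvate and lactate handling form a set of 39 named genes, listed by name, with no measured value in the rule. They were chosen with earlier results of these data known. The set covers 2 glucose transporters, the enzymes from hexokinase to pyruvate kinase, 3 lactate dehydrogenase subunits, 3 monocarboxylate transporters, 5 pyruvate dehydrogenase subunits, 4 pyruvate dehydrogenase kinases and the phosphoglycolate phosphatase Pgp. Of the 39, 37 had a probe set that named them alone, among 18194 such genes in the series. Gpi1 and Eno1 had none and were not analysed here. Among them 5 are forms used mainly by germ cells or, for Pgam2, shared with muscle (Ldhc, Pgk2, Pgam2, Pdha2 and Gapdhs). The other members are called the common forms here.

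RNA levels were measured on Affymetrix microarrays in C57BL/6 male mice. The study's title gives its purpose as finding genes that act when chromosomes separate at meiosis I. Spermatogonia, the germ cells before meiosis, were Percoll fraction 2 from 8-day-old testes. Leptotene/zygotene spermatocytes, in early meiotic prophase, were fraction 5 at day 12, and pachytene spermatocytes, with fully paired chromosomes, were fraction 8 at day 15. Whole testis and a mixture of 11 somatic tissues, muscle, heart, brain and liver among them, were taken at day 15. The fractions are enriched and not pure. The 5 groups have 2 samples each, and in every group sample 1 was run on one array design and sample 2 on another. Each member was therefore read from 1 array per group, except Gapdh, whose control probe sets are on both designs, and the differences of the others carry no p-value.

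Glycolysis splits glucose into pyruvate, which is either reduced to lactate by lactate dehydrogenase or carried into mitochondria and oxidised by the pyruvate dehydrogenase complex. In the testis, Sertoli cells are known to take up glucose and release lactate, and spermatocytes are known to use lactate and pyruvate as fuel. Male germ cells also switch several of these steps to forms encoded by separate genes. Pgk2 and Pdha2 are intronless autosomal copies of the X-linked Pgk1 and Pdha1, and the X chromosome is known to be silenced in pachytene spermatocytes.

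All values are scaled signals in arbitrary units, made comparable between the 5 arrays of a design. They compare groups for 1 gene, not different genes with each other, since probe sets differ in brightness. Signals under a floor of 87.6 on the first design and 47.0 on the second were raised to it, so a difference involving a raised signal gives a lower bound. A gene was measured in a comparison where at least 1 group was above the floor. "Rose" and "fell" are used for differences of at least 4-fold. The error of a log2 difference came from 100 probe sets present on both designs, and its 95% limit was 0.41 for pachytene against leptotene/zygotene. This limit compares the same probe sets and leaves out the spread between different probe sets of a gene. Signals raised to the floor were included, which can make it too small. The labels do not say if a group's 2 samples were prepared separately, so it may leave out the spread between preparations.

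The whole testis arrays stood apart in ways that touch every comparison with them. The ratio of the 3′ to the 5′ Gapdh control signal was 4.33 and 3.75 on the whole testis arrays, against 1.07 to 1.52 on the other 8. The same ratio for Actb was 5.22 and 6.57 in whole testis, against 1.88 to 3.40 elsewhere. Whole testis also held transcripts of other organs, although Mbp, Snap25 and Gfap of the brain were under the floor in it. Apoa1 was at 9350, Alb at 3907 and Ttr at 703. In the 3 fractions these were at most 42.9, 94.9 and 8.69, and in the somatic mix 19657, 17453 and 13121. The part of RNA quality and of these transcripts in the whole testis results was not tested. Arrays were scaled one by one. When whole testis was left out of the floor and the choice of probe sets, 12 members still rose and 9 fell in pachytene against leptotene/zygotene.

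In pachytene spermatocytes, 4 germ-cell forms (Ldhc, Pgk2, Pgam2 and Pdha2) were far higher than in leptotene/zygotene cells, while the common forms went both ways. Of 36 members measured, 12 rose, 10 fell and 14 did neither. Over all genes, 8.69% of 13514 measured genes rose and 9.34% fell. The count of falls was 5 or 6 under 6 of the alternative settings, and the rises were 48.2% of the calls over all genes as reported, against 58.9% with quantile normalization, 66.8% with median scaling and 71.7% with scaling to the probe sets on both designs. The median log2 difference was 0.41 over the members and -0.22 over all genes. Beyond the error limit, 18 members were higher and 14 were lower in pachytene cells, and 4 were within it. Of those within it, Pdk4 was placed there by a bound, so its difference may be larger. Over the 13514 genes measured, 4053 were higher beyond it, 5949 were lower and 3512 were within it. Of the 5 germ-cell forms 4 rose, with a median of 3.66. Of 31 common forms measured, 8 rose and 10 fell, with a median of -0.13. Beyond the error limit, 13 common forms were higher and 14 were lower. The 3 X-linked members (Pgk1, Pdha1 and Pdk3) were all lower, and 2 of them fell.

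The pachytene fraction also differed from the leptotene/zygotene fraction in its markers of other cells. The marker lists were chosen with earlier results of these data known, so their counts in any comparison are no independent check of the fractions. All 11 measured markers of pachytene spermatocytes rose. Of 12 Sertoli markers measured, 7 fell and all 12 were lower, with a median of -2.43. Their summed signal was 38940 in spermatogonia, 34029 in leptotene/zygotene and 9015 in pachytene cells, then 25193 in whole testis and 4688 in the somatic mix. Of the defining Sertoli markers in pachytene cells, Amh was under the floor, Wt1 was at 124 and Sox9 at 94.5, against 1090 for Wt1 and 741 for Sox9 in leptotene/zygotene cells. Clu, the brightest, was still at 3831 in pachytene cells. Of 6 Leydig markers 4 fell, and their summed signal was 10312, 5916 and 734 over the 3 fractions, 3508 in whole testis and 860 in the somatic mix. Of 10 spermatogonial markers 6 fell. Of 10 stromal and vascular markers 2 fell (median -0.93), and 7 of 8 macrophage and blood markers were higher (median 0.84), none of them by 4-fold. In these bulk samples, fewer cells of a type and less RNA per cell cannot be told apart. The part of somatic cells in the falls described below was not tested.

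**Figure D1:**
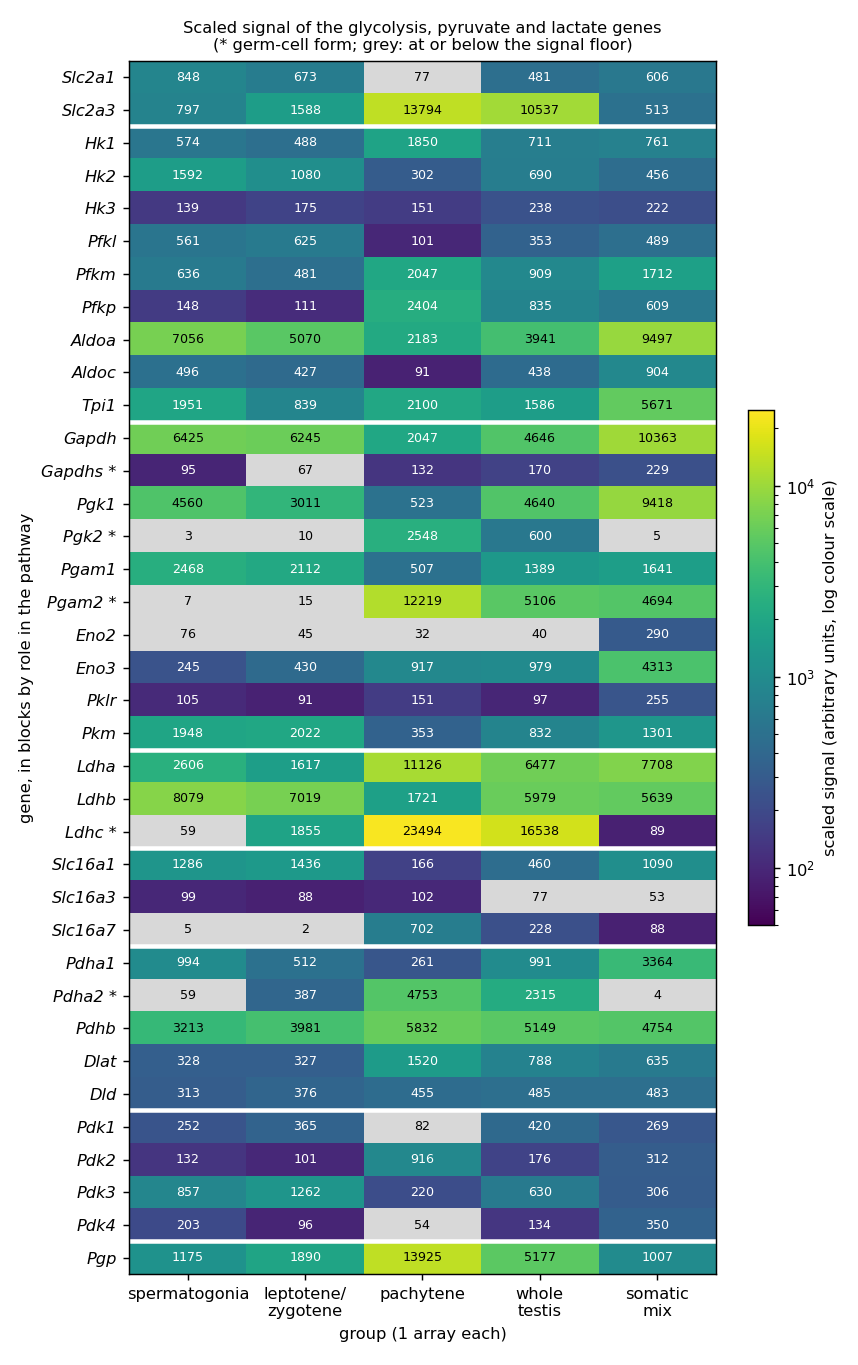
Scaled signal of the 37 members with a probe set (rows, in blocks from glucose transporters at the top to Pgp at the bottom) in the 5 groups (columns, 1 array each), on a logarithmic colour scale, with the value in each cell. Grey cells are at or below the floor. Ldhc, Pgk2, Pgam2 and Pdha2 are bright in pachytene cells and whole testis and grey in spermatogonia, and Pgk2 and Pdha2 are grey in the somatic mix too. Rows are to be compared across columns and not with each other.

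Ldhc encodes the lactate dehydrogenase subunit of spermatocytes and sperm. Its signal was 58.8 in spermatogonia, 1855 in leptotene/zygotene cells, 23494 in pachytene cells, 16538 in whole testis and 88.9 in the somatic mix. It was thus under the floor in spermatogonia, just above it in the somatic mix, and already well above it in leptotene/zygotene cells. The difference between pachytene and leptotene/zygotene cells was 3.66, or 12.7-fold. A second Ldhc probe set gave 3.85.

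Pgk2 encodes the phosphoglycerate kinase of meiotic and later germ cells. Its signal was 3.02 in spermatogonia, 10.1 in leptotene/zygotene cells, 2548 in pachytene cells, 600 in whole testis and 5.34 in the somatic mix. Only pachytene cells and whole testis were above the floor, and the pachytene signal was at least 29.1-fold that of leptotene/zygotene cells. Pgam2 encodes the phosphoglycerate mutase subunit of muscle and of male germ cells. Its signal was 6.73, 14.6 and 12219 over the 3 fractions, 5106 in whole testis and 4694 in the somatic mix. It was at least 139-fold higher in pachytene than in leptotene/zygotene cells, the highest value or bound among the 36 members measured.

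Pgam2 is also a muscle transcript, and striated muscle markers were therefore set beside it. Their summed signal over 12 genes was 2471, 1302 and 657 in spermatogonia, leptotene/zygotene and pachytene cells, 4946 in whole testis and 78645 in the somatic mix. In pachytene cells 3 of the 12 were above the floor, Ckm at 143 among them, against 8091 for Ckm in the somatic mix. Over the 3 fractions Ckm was at 101, 77.7 and 143, so it was higher in pachytene than in leptotene/zygotene cells (at least 0.70). Tnnt2, a cardiac troponin, was at 1592, 467 and 64.3 and made up much of the sum in the earlier fractions. The part of muscle RNA in the Pgam2 values was not tested.

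Pdha2 encodes the E1 alpha subunit of pyruvate dehydrogenase in spermatogenic cells. Its signal was 59.0, 387 and 4753 in spermatogonia, leptotene/zygotene and pachytene cells, 2315 in whole testis and 4.19 in the somatic mix. It was under the floor in spermatogonia and in the somatic mix, and 12.3-fold higher in pachytene than in leptotene/zygotene cells. Gapdhs encodes the glyceraldehyde-3-phosphate dehydrogenase of the sperm tail, known from spermatids. Its signal was 94.8, 66.6 and 132 over the 3 fractions, 170 in whole testis and 229 in the somatic mix, so it was near the floor in every germ cell fraction. Of 8 spermatid markers 3 were measured in pachytene against leptotene/zygotene cells. The acrosomal gene Acr rose (2045 in pachytene against 88.1 in leptotene/zygotene cells). Odf1 was at 126 in pachytene against 2.46 in leptotene/zygotene cells, higher by at least 0.52. Prm1 was at 91.0 in pachytene cells, near the floor. The others, Prm2 and Tnp1 among them, were under the floor in all 5 groups.

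The promoters of these forms and of their X-linked counterparts are shown because Ldhc, Pgk2, Pdha2 and Pgam2 all rose in pachytene cells while Pgk1 and Pdha1 were lower. Each is the 250 bases before the annotated start in RefSeq, 5′ to 3′ on the gene's strand, on mouse GRCm38.p6. The table held 37 of the 39 members. Capitals mark the letters TGACG (the core of the cAMP response element), GGGCGG (the GC box) and AACGG (the MYB core), searched on both strands, so a match on the other strand is printed as its reverse complement. The motifs do not overlap in the sequences shown. Ldhc lies at chr7:46861013-46861262 (+), Pgk2 at chr17:40208610-40208859 (-), Pdha2 at chr3:141212356-141212605 (-), Pgam2 at chr11:5803797-5804046 (-), Pgk1 at chrX:106186850-106187099 (+) and Pdha1 at chrX:160138431-160138680 (-).
Ldhc: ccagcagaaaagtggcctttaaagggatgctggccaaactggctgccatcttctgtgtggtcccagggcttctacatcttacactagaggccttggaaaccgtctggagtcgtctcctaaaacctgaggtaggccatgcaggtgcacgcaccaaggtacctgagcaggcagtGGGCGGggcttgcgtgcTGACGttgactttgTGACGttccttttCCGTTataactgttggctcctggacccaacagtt
Pgk2: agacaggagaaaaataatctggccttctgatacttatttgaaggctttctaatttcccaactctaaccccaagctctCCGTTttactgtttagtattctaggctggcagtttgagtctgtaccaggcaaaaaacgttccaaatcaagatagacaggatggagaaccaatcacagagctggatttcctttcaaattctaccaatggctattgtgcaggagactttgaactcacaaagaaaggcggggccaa
Pdha2: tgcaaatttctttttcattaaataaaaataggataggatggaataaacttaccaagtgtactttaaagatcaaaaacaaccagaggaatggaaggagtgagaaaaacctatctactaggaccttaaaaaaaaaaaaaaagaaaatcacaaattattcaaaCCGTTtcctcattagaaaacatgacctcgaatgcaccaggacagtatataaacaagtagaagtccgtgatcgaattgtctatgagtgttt
Pgam2: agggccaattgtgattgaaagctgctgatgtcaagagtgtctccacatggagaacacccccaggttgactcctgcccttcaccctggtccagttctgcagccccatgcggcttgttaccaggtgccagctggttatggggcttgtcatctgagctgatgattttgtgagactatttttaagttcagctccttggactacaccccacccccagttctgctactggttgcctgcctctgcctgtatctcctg
Pgk1: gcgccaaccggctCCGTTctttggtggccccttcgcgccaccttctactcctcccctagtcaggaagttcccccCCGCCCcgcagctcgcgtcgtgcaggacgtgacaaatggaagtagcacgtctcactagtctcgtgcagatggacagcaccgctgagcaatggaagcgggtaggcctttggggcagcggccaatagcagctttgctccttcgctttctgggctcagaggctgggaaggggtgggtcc
Pdha1: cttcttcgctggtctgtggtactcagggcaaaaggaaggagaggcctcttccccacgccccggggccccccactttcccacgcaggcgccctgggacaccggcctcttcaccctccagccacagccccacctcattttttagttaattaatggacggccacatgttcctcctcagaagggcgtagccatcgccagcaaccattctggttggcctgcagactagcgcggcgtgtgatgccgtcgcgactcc

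The Ldhc promoter held 2 cAMP element cores, 1 GC box and 1 MYB core. Pgk2 and Pdha2 each held 1 MYB core and neither of the other motifs, and Pgam2 and Pdha1 held none of the 3. Pgk1 held 1 GC box and 1 MYB core. Among all 27025 promoters, 17.8% held a cAMP element core, 33.0% a GC box and 14.8% a MYB core. The cAMP element core was in 1 of 5 germ-form promoters and in 5 of 32 common-form promoters, the GC box in 1 of 5 and 16 of 32, and the MYB core in 3 of 5 and 8 of 32. The germ-form promoters had a median of 3 CpG dinucleotides (range 1 to 8), against 14 in the common forms (range 0 to 37) and 6 over all promoters. Their median G and C content was 53.2% (range 31.6% to 54.8%), against 60.4% in the common forms (range 36.4% to 76.4%) and 52% over all promoters. A match is a run of letters in this window and was not tested as a binding site.

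Each germ-cell form was then set against the common form of the same enzyme. The difference between 2 log2 differences has a 95% limit of 0.58 here, and no test was possible with 1 array per group. Pgk1 had signals of 4560, 3011 and 523 in spermatogonia, leptotene/zygotene and pachytene cells, 4640 in whole testis and 9418 in the somatic mix. It fell by 2.53 on the log2 scale in pachytene cells while Pgk2 rose, a contrast of at least 7.39. The other Pgk1 probe sets, 2 in number, were lower by log2 differences of -1.65 and, at least, -1.11. Pgam1, the common mutase, was at 2468, 2112 and 507 over the 3 fractions, 1389 in whole testis and 1641 in the somatic mix, and fell by 2.06. Its contrast with Pgam2 was at least 9.18.

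The lactate dehydrogenase subunits split 3 ways. Ldhb, whose subunit predominates in heart, was at 8079, 7019 and 1721 over the 3 fractions, 5979 in whole testis and 5639 in the somatic mix. It fell by 2.03 in pachytene cells, and its 4 probe sets lay between -2.32 and -2.01. Ldha, whose subunit predominates in skeletal muscle, was at 2606, 1617 and 11126 over the 3 fractions, 6477 in whole testis and 7708 in the somatic mix. It rose by 2.78, as a common form that moved with Ldhc. The contrast of Ldhc with Ldhb was 5.69 and with Ldha 0.88, both beyond the limit.

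Pdha1 was at 994, 512 and 261 over the 3 fractions, 991 in whole testis and 3364 in the somatic mix. Its difference in pachytene cells was -0.97, short of 4-fold, and a second probe set gave at least -2.11. The contrast of Pdha2 with Pdha1 was 4.59. For Gapdhs against Gapdh it was at least 2.20, with Gapdh lower and Gapdhs higher by at least 0.59.

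**Figure D2:**
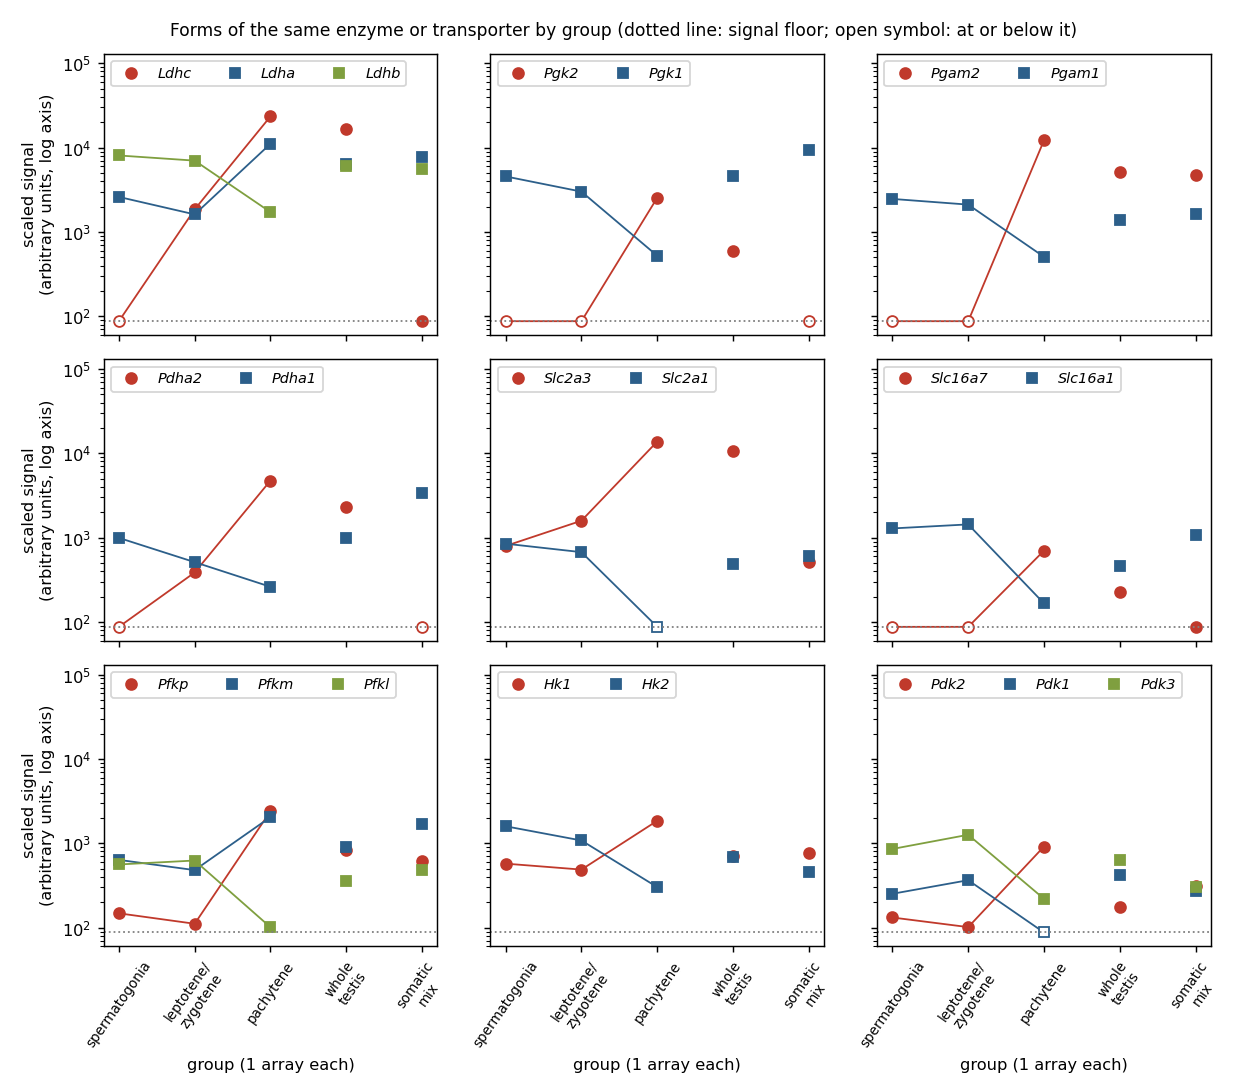
Scaled signal (logarithmic axis) of 9 sets of forms in the 5 groups, 1 array each; lines join the 3 fractions, the dotted line is the floor of 87.6 and open symbols are at or below it. In each panel the red form is higher in pachytene than in leptotene/zygotene cells and at least 1 other form is lower. The sets are a selection and no test of such a split, and Aldoa and Aldoc, both lower, are not shown. Levels of different genes within a panel are not comparable.

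Gapdh was the member measured on both designs with the same probe sets, and so the member that could be tested. Its 3′ control probe set gave 6425 and 7630 in spermatogonia, 6245 and 6823 in leptotene/zygotene cells, and 2047 and 1894 in pachytene cells on the first and second design. In whole testis it gave 4646 and 3671, and in the somatic mix 10363 and 11499. The 2 designs thus put the groups in the same order, with pachytene cells lowest. The log2 difference between pachytene and leptotene/zygotene cells was -1.73 ± 0.17 (SE, 2 arrays per group; limma, adjusted p = 2.11e-06 over 113 probe sets on both designs). The middle and 5′ control probe sets gave -1.89 and -2.18 (limma, adjusted p = 1.07e-06 and 3.96e-07). With the replicate number as a block the 3′, middle and 5′ differences had weaker support (limma, adjusted p = 0.000214, 0.000132 and 0.000117). Of the 113 probe sets, 66.4% passed this test in this comparison. Between leptotene/zygotene cells and spermatogonia the 3′ difference was -0.10, with a 95% interval of -0.47 to 0.26 (limma, adjusted p = 0.80). At this step 9 of the 113 (7.96%) passed, and 0 did in limma with the replicate number as a block, where 26 had an unadjusted p below 0.05.

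**Figure D3:**
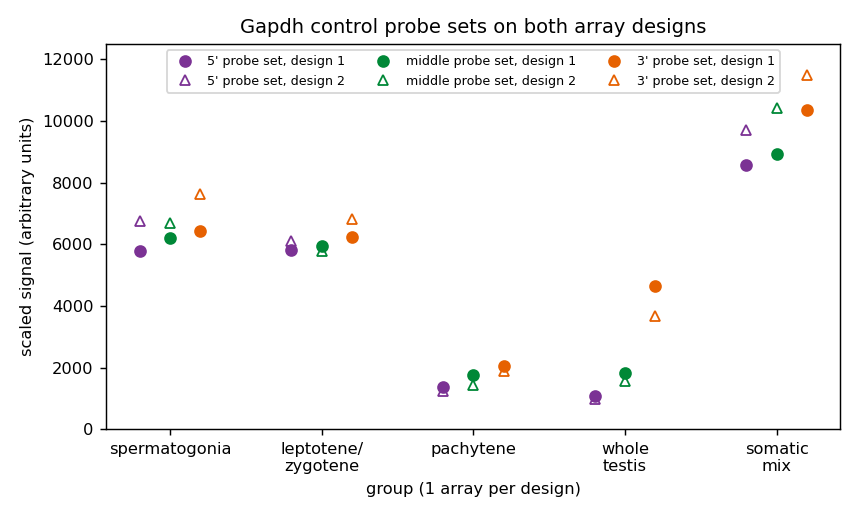
Scaled signal of the 5′, middle and 3′ Gapdh control probe sets in the 5 groups (circles, first design; triangles, second design; 1 array per design). All 3 are low in pachytene cells on both designs, and whole testis shows the widest gap between the 3′ and 5′ probe sets.

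Among the glucose transporters, Slc2a1 and Slc2a3 moved in opposite directions. Slc2a3, a high-affinity transporter known in sperm and neurons, was at 797, 1588 and 13794 over the 3 fractions, 10537 in whole testis and 513 in the somatic mix. It rose 8.69-fold in pachytene cells. A second probe set gave 4.21 on the log2 scale. The names of both mark probes possibly shared with other transcripts, and 2 further Slc2a3 probe sets were under the floor in all groups. Slc2a1, the broadly expressed transporter, was at 848, 673 and 77.1 over the 3 fractions, 481 in whole testis and 606 in the somatic mix. It fell at least 7.68-fold, to below the floor. Its other probe sets were below the floor in pachytene cells too, with bounds of -1.90 and -2.34 on the log2 scale.

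In upper glycolysis, from hexokinase to triose phosphate isomerase, 2 of 9 measured genes rose and 2 fell. Pfkp, the platelet form of phosphofructokinase, was at 148, 111 and 2404 over the 3 fractions, 835 in whole testis and 609 in the somatic mix, and rose 21.6-fold. This rests on 1 probe set, since the others of Pfkp were not above the floor in either of these 2 fractions. Pfkm, the muscle form, was at 636, 481 and 2047 over the 3 fractions, 909 in whole testis and 1712 in the somatic mix, and rose 4.26-fold. Pfkl, the liver form, was at 561, 625 and 101 over the 3 fractions, 353 in whole testis and 489 in the somatic mix, and fell 6.18-fold. Its other probe sets gave only -0.54 and -0.75 on the log2 scale, so the Pfkl fall depends on the probe set. With whole testis left out of the choice of probe sets alone, another was used and the fall was lost (-0.54), whereas with whole testis left out of the floor alone it was kept.

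Hk1, the broadly expressed hexokinase, and Hk2, best known from muscle and fat, differed in opposite directions without reaching 4-fold. Hk1 was at 1850 in pachytene against 488 in leptotene/zygotene cells (log2 difference 1.92). Hk2 was at 302 in pachytene against 1080 in leptotene/zygotene cells (-1.84). Their contrast was 3.76. Hk3, a hexokinase of blood cells, was at 139 to 238 in all 5 groups, and its difference of -0.22 was within the limit. Aldoc, an aldolase best known from brain, was at 90.8 in pachytene against 427 in leptotene/zygotene cells and fell 4.70-fold. Aldoa, the muscle aldolase, was at 2183 in pachytene against 5070 in leptotene/zygotene cells, a difference of -1.22 (range over 5 probe sets -2.04 to -0.34). Tpi1, triose phosphate isomerase, was higher in pachytene cells at 2100, against 839 in leptotene/zygotene cells (1.32).

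In lower glycolysis 2 of 9 measured genes rose, Pgk2 and Pgam2, and 3 fell. The third that fell, beside Pgk1 and Pgam1, was the pyruvate kinase Pkm. It was at 1948, 2022 and 353 over the 3 fractions, 832 in whole testis and 1301 in the somatic mix, a 5.73-fold fall read from 1 probe set. Pklr, the liver and red cell pyruvate kinase, was at 151 in pachytene against 91.2 in leptotene/zygotene cells (0.73). Eno3, the muscle enolase, was at 245, 430 and 917 over the 3 fractions, 979 in whole testis and 4313 in the somatic mix, a pachytene difference of 1.09. Eno2, the neuronal enolase, was above the floor only in the somatic mix, at 290.

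The monocarboxylate transporters, which carry lactate and pyruvate across membranes, divided like the glucose transporters. Slc16a1 was at 1286, 1436 and 166 over the 3 fractions, 460 in whole testis and 1090 in the somatic mix. It fell 8.64-fold, the largest fall measured on both sides, beside the bound of at least 7.68-fold for Slc2a1. Slc16a7, a high-affinity pyruvate carrier, was at 4.68, 2.29 and 702 over the 3 fractions, 228 in whole testis and 88.0 in the somatic mix. It rose at least 8.01-fold, and the contrast with Slc16a1 was at least 6.11. Slc16a3, known as a lactate exporter of glycolytic cells, stayed between 52.6 and 102 in all 5 groups, near the floor.

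Among the pyruvate dehydrogenase subunits, Dlat joined Pdha2 in rising. Dlat, the E2 subunit, was at 328, 327 and 1520 over the 3 fractions, 788 in whole testis and 635 in the somatic mix, a 4.65-fold rise, with 3 probe sets between 1.63 and 2.22 on the log2 scale. Pdhb, the E1 beta subunit, was at 5832 in pachytene against 3981 in leptotene/zygotene cells (0.55). Dld, the E3 subunit, was at 455 in pachytene against 376 in leptotene/zygotene cells, within the limit.

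The 4 kinases that inhibit pyruvate dehydrogenase by phosphorylation went different ways. Pdk2 was at 132, 101 and 916 over the 3 fractions, 176 in whole testis and 312 in the somatic mix, and rose 9.03-fold. The X-linked Pdk3 was at 857, 1262 and 220 over the 3 fractions, 630 in whole testis and 306 in the somatic mix, and fell 5.75-fold. Pdk1 was at 252, 365 and 82.0 over the 3 fractions, 420 in whole testis and 269 in the somatic mix, and fell at least 4.17-fold, with a different probe set on the second design at -2.10 on the log2 scale and another on the first at a bound of -1.51. Pdk4, induced by fasting in other tissues, was at 54.0 in pachytene against 96.2 in leptotene/zygotene cells, and the bound on its difference, -0.13, was within the limit. Pgp was at 1175, 1890 and 13925 over the 3 fractions, 5177 in whole testis and 1007 in the somatic mix. It rose 7.37-fold by this probe set, whereas its second probe set, at 2407 in pachytene against 1300 in leptotene/zygotene cells, gave 0.89 on the log2 scale.

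**Figure D4:**
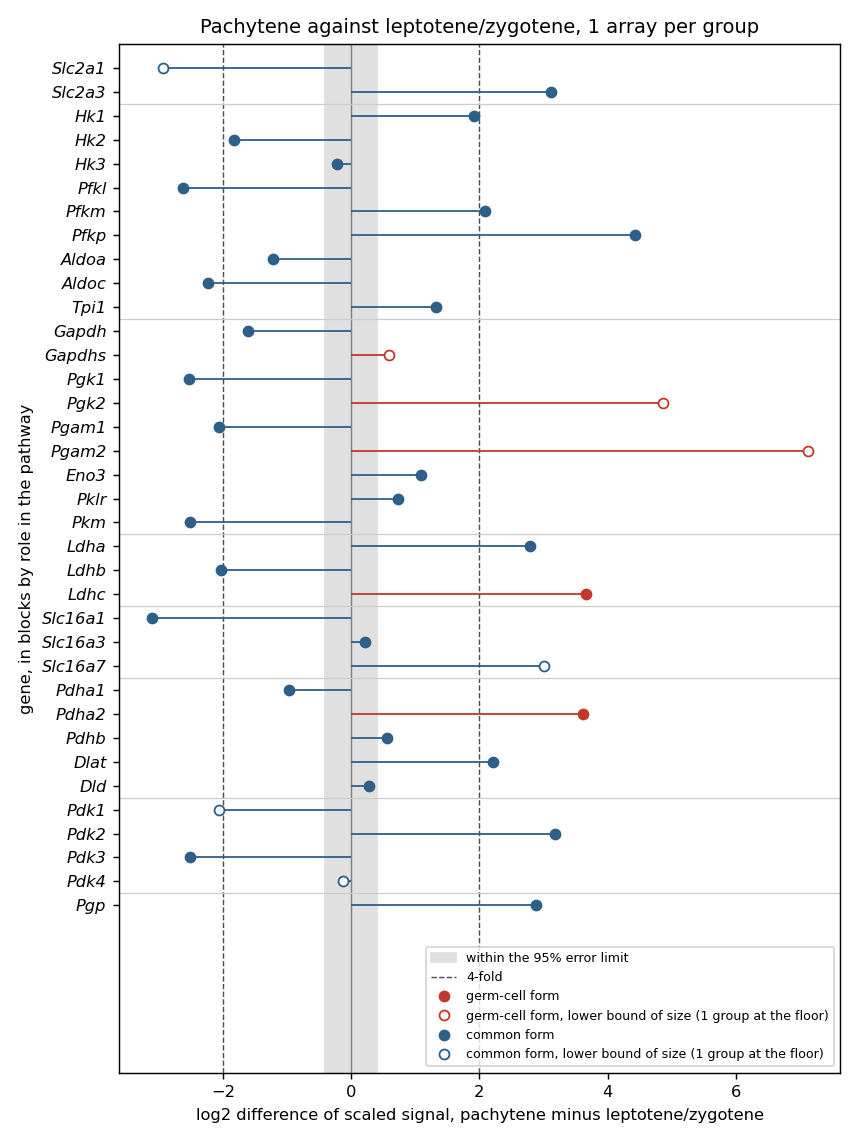
Log2 difference of scaled signal, pachytene minus leptotene/zygotene, for the 36 measured members in blocks by role (horizontal axis; 1 array per group). Open circles are lower bounds, the grey band is the 95% error limit of 0.41 and dashed lines mark 4-fold. Most blocks hold members on both sides of 0.

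Some of these calls lay close to the threshold. Just inside it were Ldhb, Pgam1 and Pdk1 among the falls and Pfkm among the rises (2.09). Just outside it were Hk1 and Hk2. In pachytene against leptotene/zygotene cells, 17 members had more than 1 measured probe set. None of them had probe sets beyond the limit in opposite directions, and 16 members had 1 probe set only. Of the 12 members that rose 4 had another measured probe set, and the call was missed by one for 2 of them (Dlat and Pgp). Of the 10 that fell 5 had another, and it was missed for 4 (Slc2a1, Pfkl, Pgk1 and Pdk1), for Slc2a1 and Pdk1 by bounds. Several members belong to families with close copies in the genome (Gapdh, Aldoa, Pgk1 and Pgk2, Pdha1 and Pdha2, Pgam1, Ldha, Tpi1), and binding between copies was not tested. Across all genes read by different probe sets on both designs, 278 of 328 calls of the first design had the same direction on the second (84.8%). On the second design only 76 of the 328 also reached 4-fold in that direction.

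The earlier step, leptotene/zygotene cells against spermatogonia, moved few members, and both that rose were germ-cell forms. Of 33 members measured, 2 rose and none fell. Over all 12917 genes measured, 0.31% rose and 0.279% fell. Ldhc rose at least 21.2-fold and Pdha2 at least 4.41-fold, each against a spermatogonial signal under the floor. Pgk2, Pgam2 and Slc16a7 were under the floor in both fractions. Of 10 measured markers of pachytene spermatocytes 9 were higher too, with a median of 1.02. So were 8 of 11 spermatogonial markers (median 0.60) and 6 of 7 macrophage and blood markers (1.05), while 10 of 11 stromal and vascular markers (-0.84), 5 of 6 Leydig markers (-0.77) and 4 of 12 Sertoli markers (-0.22) were lower. Their part in the members' differences was not tested.

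Beyond the limit of 0.35, 7 of 33 members were higher in leptotene/zygotene cells, Ldhc and Pdha2 included, and 10 were lower. Over the 12917 genes measured, 3113 were higher beyond it and 2867 were lower. Slc2a3 was at 1588 in leptotene/zygotene cells against 797 in spermatogonia (0.99). Tpi1 was at 839 in leptotene/zygotene cells against 1951 in spermatogonia (-1.22), so that its order over the 3 fractions was high, low and high. Ldha had the same order (-0.69 at this step). Pdha1 (-0.96) and Pdk4 (-1.08) were also lower, and no upper glycolysis gene was higher beyond the limit.

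Pachytene cells were next set against whole testis of the same age, to see which members were enriched in the fraction. Of 36 members measured, 2 rose (Pgk2 and Pdk2) and 4 fell (Slc2a1, Aldoc, Pgk1 and Pdk1). The shares over 13833 genes were 2.35% and 4.38%. The rises were 34.9% of these calls, against 66.1% with median scaling and 51.7% with scaling to the probe sets on both designs. Pgk2 was 4.25-fold higher in pachytene cells and Pdk2 was 5.22-fold higher. Pgk1 was 8.88-fold lower, Slc2a1 at least 5.48-fold, Aldoc 4.83-fold and Pdk1 at least 4.79-fold. Of these 4, 3 had another measured probe set, and each had one whose bound was short of 4-fold, at -1.77 for Pgk1, -1.24 for Slc2a1 and -1.40 for Pdk1. The other germ-cell forms differed less. The log2 difference was 1.26 for Pgam2, 1.04 for Pdha2 and 0.51 for Ldhc, each beyond the limit of 0.46, and -0.36 for Gapdhs, within it.

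Sertoli markers were lower in this comparison as well, 8 of 11 measured beyond the limit (median -1.01). The Gapdh probe sets disagreed here along the transcript. The 3′ difference was -1.07 (limma, adjusted p = 0.00023, or 0.00244 with the replicate number as a block). The middle one was -0.09 (limma, adjusted p = 0.68) and the 5′ one 0.36 (limma, adjusted p = 0.061, or 0.0397 with the replicate number as a block). Of the 113 probe sets, 63.7% passed this test.

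Against the somatic mix, pachytene cells showed the widest spread of the set. Of 37 members measured, 6 rose and 9 fell, while 11.6% and 12.1% of 15025 genes did. The rises were 48.9% of these calls, against 68.2% with median scaling. Ldhc was 264-fold higher in pachytene cells, against a somatic mix signal of 88.9, barely above the floor of 87.6, so this value is close to a bound. Its second probe set was at 45.8 there, under the floor, and gave at least 7.68 on the log2 scale. Pdha2 was higher by at least 54.2-fold, Pgk2 at least 29.1-fold, Slc2a3 26.9-fold, Pgp 13.8-fold and Slc16a7 7.98-fold, the last against 88.0 in the somatic mix, also barely above the floor. The second Pgp probe set gave 1.33 on the log2 scale, short of 4-fold. Pgam2 was higher by 1.38 on the log2 scale. Among the falls, Pgk1 had a log2 difference of -4.17, Pdha1 was 12.9-fold lower and Aldoc 9.96-fold. Slc2a1 (at least 6.91-fold), Slc16a1 (6.56-fold), Gapdh (5.06-fold), Pfkl (4.83-fold), Eno3 (4.70-fold) and Aldoa (4.35-fold) followed. The other Pfkl probe sets gave -0.19, within the limit of 0.61, and -1.21. One of Aldoa gave -0.89, one of Slc2a1 a bound of -1.83 and one of Slc16a1 a bound within the limit. All 12 striated muscle markers fell in the same comparison. The 3′ Gapdh difference was -2.47 over both designs (limma, adjusted p = 1.23e-07), in a test that 69.9% of the 113 probe sets passed. With the replicate number as a block its adjusted p was 5.8e-05 (limma). Pdk4 (at least 3.99-fold lower) and Pfkp (3.95-fold higher) lay just short of the threshold. A Pfkp probe set on the second design went the other way, with a bound of -0.71, beyond the limit.

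Whole testis against the somatic mix gave 5 members that rose and 1 that fell, of 36 measured. Over 14977 genes 7.22% rose and 5.7% fell, so that rises were 55.9% of the calls, against 66.0% with the values as deposited. Ldhc was 186-fold higher in whole testis, again against a signal barely above the floor, and its second probe set gave at least 7.39 on the log2 scale. Pdha2 was higher by at least 26.4-fold, Slc2a3 20.5-fold, Pgk2 at least 6.85-fold and Pgp 5.14-fold, whereas the second Pgp probe set gave 1.20 on the log2 scale. Eno3 was 4.40-fold lower. In the same comparison 11 of 12 striated muscle markers fell (median -3.60), 4 of 9 macrophage and blood markers fell (-1.32), 7 of 11 Sertoli markers rose (2.51) and all 11 pachytene markers rose (3.73). Their part in the members' differences was not tested. Pgam2 was at 5106 in whole testis against 4694 in the somatic mix, within the limit of 0.57. Ldha (-0.25) and Ldhb (0.08) were within it as well. The Gapdh difference was -1.40 at the 3′ end and -3.16 at the 5′ end (limma, adjusted p = 3.46e-05 and 9.52e-09), where 45.1% of the 113 probe sets passed. With the replicate number as a block the adjusted p was 0.00125 and 4.11e-05 (limma).

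The neighbouring pathways were read from lists of named genes. In pachytene against leptotene/zygotene cells, 8.69% of all 13514 measured genes rose and 9.34% fell, with a median of -0.22. No list was tested against these shares. Among regulators and side branches of glycolysis, 3 of 25 measured genes rose in pachytene against leptotene/zygotene cells and 4 fell, with a median of -0.73. Ldhal6b, a lactate dehydrogenase-like gene, was at 10064 in pachytene against 193 in leptotene/zygotene cells, Slc2a5, a fructose transporter, at 4730 against 97.9, and Fbp1, the gluconeogenic fructose bisphosphatase, at 12414 against 328. The falls were Pdp1 (-2.81) and Pdpr (-2.07), a pyruvate dehydrogenase phosphatase and its regulator, Emb (-2.34), a partner of monocarboxylate transporters, and Gpd1 (-2.06), a glycerol phosphate dehydrogenase. Bsg, the partner protein that carries Slc16a1 to the membrane, was higher in pachytene cells at 3321, against 2111 in leptotene/zygotene cells.

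Of 8 measured pentose phosphate genes 1 rose and 3 fell, with a median of -1.54. Pgd (-2.68), Taldo1 (-2.47) and the X-linked Tktl1 (-2.65) fell, and Tktl2 rose at least 4.97-fold. Of 19 citric acid cycle genes 2 rose and 2 fell, near the shares over all genes (8.69% and 9.34%), with a median of -0.04. Mdh1b, a malate dehydrogenase-like gene, was at 4038 in pachytene against 110 in leptotene/zygotene cells, and the citrate synthase-like Csl rose at least 7.05-fold, while the X-linked Idh3g (-2.40) and Fh1 (-2.22) fell. None of 6 measured glycogen genes reached 4-fold, and 5 were lower (median -0.99).

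**Figure D5:**
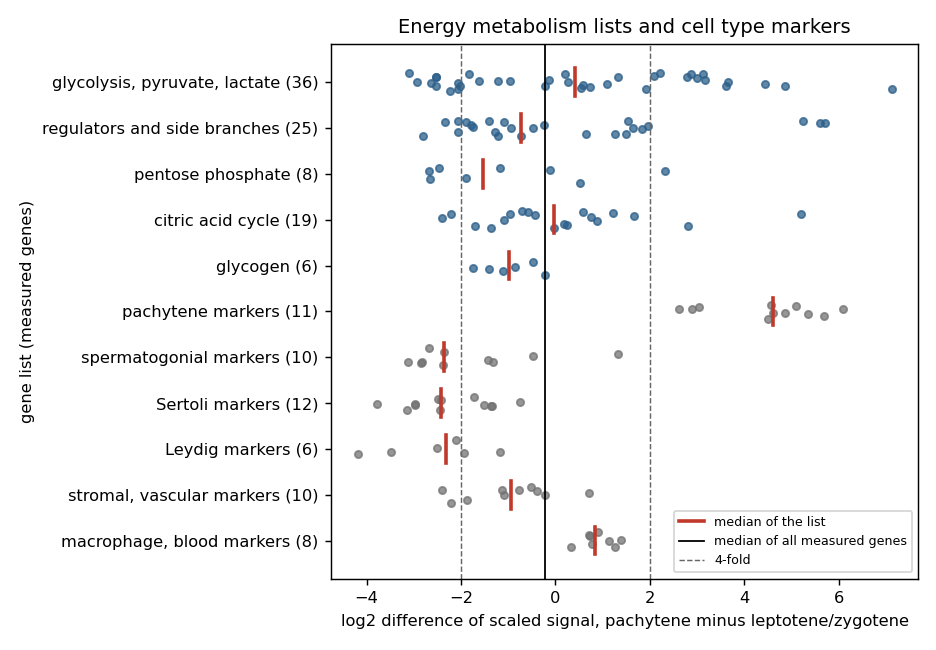
Log2 difference of scaled signal, pachytene minus leptotene/zygotene, of each measured gene in 5 energy metabolism lists (blue) and 6 marker lists (grey), with the number measured in parentheses, red bars for list medians and a black line for the median of all measured genes (-0.22). The members spread from -3.11 to 7.12, while the Sertoli and Leydig markers lie below 0 throughout and the pachytene markers above 2.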

How the data were processed

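Total RNA was amplified to biotin-labelled cRNA and hybridised to 10 arrays of 2 designs (22690 and 22575 probe sets), per the labels. The authors deposited 1 linear intensity for each probe set, and GCOS 1 is named in the submitters' processing notes. No source used here gives their scaling or background correction. Before scaling, array means trimmed by 2% were 383 to 484 on the first design and 63.4 to 148 on the second.

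Arrays of a design were brought to a common mean trimmed by 2%. On the first design the floor was the 90th percentile of 68 probe sets for chemosensory receptors, and it was the median of all signals on the second, which held 15 such probe sets (minimum 20). A gene was read from its brightest probe set (mean log2 signal over the groups), on the first design where any there was above the floor. The 3′ control probe set read Gapdh, since its other plain probe sets name several genes. Symbols were updated through Entrez identifiers with the GRCm38.p6 RefSeq gene table.

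The log2 differences were computed with Python 3.11.15. The error was the root mean square gap between designs over 100 shared probe sets after division by √2, and the limit is 1.96 times that. The 113 probe sets on both designs, 13 of them controls that name a gene, were tested with limma 3.58.1 (R 4.3.3), with Benjamini-Hochberg adjustment and a threshold of 0.05. Both steps were also run on simulated data. The first run used copies of single arrays and the second drew each array independently, so neither measures the errors of these data.

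Same-numbered samples share an array design, and their deviations from the group means correlated at 0.32 to 0.66 over 10 pairs, so the number pairs the samples. All 39 members were accounted for. Given in full were the germ-cell forms, the common forms of the same enzymes and members past 4-fold in a comparison, and from other pathway lists up to 6 genes past 4-fold per direction. The members and lists were chosen with earlier results of these data known. The number of arrays limits the precision.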

Additional observations from a re-analysis of the deposited data

How the results depend on the processing

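No member past 4-fold changed direction under any alternative that could read it. In pachytene against leptotene/zygotene cells the 12 rises were 9 to 13 under the other scalings, floors and probe set choices, and the 10 falls were 6 with median scaling, with scaling to the shared probe sets, with a floor at the 60th percentile and with the mean over probe sets. They were 5 with log2 of signal plus floor and without probe sets whose names end in _s_at, _x_at or _a_at. Every fall under the alternatives with 5 or 6 was among the 10. The scaling moved the median of all genes above the floor in both groups by 0.17 (quantile), 0.30 (median) and 0.36 (shared probe sets), and the rises among all calls were 48.2% as reported, 58.9%, 66.8% and 71.7% with these, and 42.7% with the values as deposited. In leptotene/zygotene cells against spermatogonia the 2 rises were 1 with scaling to the shared probe sets, a floor at the 60th percentile or log2 of signal plus floor, and 2 members were lower at 2-fold. In pachytene cells against whole testis the 2 rises were 1 with quantile normalization or the values as deposited, 0 with log2 of signal plus floor and 9 at 2-fold. The 4 falls there were 2 with median scaling, the mean over probe sets or without those name endings, 7 as deposited, 1 with the higher floor or log2 of signal plus floor and 13 at 2-fold. Against the somatic mix, pachytene cells had 11 rises and 16 falls at 2-fold and 5 falls with median scaling. Whole testis against the somatic mix had 0 falls with median scaling or as deposited, 2 with the mean over probe sets, 11 at 2-fold, and 3 rises without those name endings. Except where fewer probe sets or a different fold define the alternative, the cause was not tested. Leaving out the samples numbered 1 leaves the second design, which measured 5 members in pachytene against leptotene/zygotene cells, and leaving out those numbered 2 leaves the first. Between these the rises ranged from 0 to 12 and the falls from 1 to 10 in that comparison. The other ranges were 0 to 2 rises in leptotene/zygotene cells against spermatogonia, 0 to 2 rises and 0 to 4 falls in pachytene cells against whole testis, 0 to 6 and 1 to 9 against the somatic mix, and 0 to 5 and 0 to 1 in whole testis against the somatic mix. With whole testis left out of the floor and the choice of probe sets, or of that choice alone, Pfkl was the fall lost, and none was lost with whole testis left out of the floor alone (alternatives added after seeing the data). Of the 113 shared probe sets 75 passed in pachytene against leptotene/zygotene cells, 76 with the replicate block, and 69 to 76 without each array in turn. The replicate block changed the count from 9 to 0 in leptotene/zygotene cells against spermatogonia and, of the Gapdh calls, only the 5′ one against whole testis. That 5′ call also passed with median scaling (0.77), and the 3′ one did not as deposited (-0.78).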
